A study of Mus musculus with 12 samples.

Results

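Levels of 10 immune checkpoint genes were followed on 12 one-colour microarrays of sorted mouse B cells. They were 7 receptors (Ctla4, Tigit, Lag3, Pdcd1, Btla, Havcr1 and Havcr2) and 3 ligands (Cd274, Pdcd1lg2 and Cd200), grouped here as inhibitory receptors and checkpoint ligands. The grouping does not state what each receptor, Havcr1 in particular, does in B cells. The genes were found by their symbol among the gene probes of the array, which gave 12 probes for the 10 genes, of 55681 probes for 34821 gene names in all. Splenic B cells came from female Balb/c mice that were either controls or had house dust mite (HDM) allergic airway disease. All cells, those of control mice included, were cultured with a CD40 agonist for 2 days with LPS in the last 5 hours, stained for secreted IL-10 and divided by FACS into an IL-10+ and an IL-10- fraction. The 4 groups of 3 arrays were IL-10+ HDM, IL-10- HDM, IL-10+ control and IL-10- control. Separate mice or cultures are not named for the arrays of a group, so p-values rest on a spread between arrays that may be technical.

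Checkpoint receptors are surface proteins that restrain lymphocyte activation when they meet a ligand on a neighbouring cell. CTLA-4 competes with the costimulatory receptor CD28 for CD80 and CD86, PD-1 (Pdcd1) binds PD-L1 (Cd274) and PD-L2 (Pdcd1lg2), TIGIT binds the poliovirus receptor and nectins, and LAG-3 binds MHC class II. Most of this is known from T cells. Activated B cells are known for PD-L1 and BTLA on their surface, and TIM-1 (Havcr1) marks mouse B cells that make IL-10.

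The sequences of the probes matter here because each gene was measured by 1 or 2 stretches of its transcript. The first 30 bases of the probes of the 4 receptors with the highest fold changes, as given 5′ to 3′ in the scanner files, were:

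Ctla4: cttggaagcagcataaggatatagcattat
Tigit: tttaatgtcctgagctacagaagcctagag
Lag3: ggagaaaacagttgctactgagaagatttt
Pdcd1: aaggaaagggggatataaccttgacgcaaa

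In the mm9 coordinates of the scanner files, these probes lie on chromosome 1 at 60971801 to 60971860, plus strand (Ctla4), chromosome 16 at 43649114 to 43649173, minus strand (Tigit), chromosome 6 at 124854570 to 124854866, minus strand (Lag3), and chromosome 1 at 95935064 to 95935123, minus strand (Pdcd1). The Lag3 probe has 60 bases but spans 297 bases of genome. Exon and UTR annotation of mm9 was not used here. Havcr1 was read by 2 separate probes, shown whole because they gave different fold changes:

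A_51_P371745: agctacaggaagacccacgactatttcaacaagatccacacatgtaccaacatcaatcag
A_55_P2148210: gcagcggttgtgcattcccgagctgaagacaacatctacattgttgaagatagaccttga

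They lie on the plus strand of chromosome 11, at 46569677 to 46569736 and at 46592056 to 46592115. The Pdcd1lg2 probes overlap by 57 bases on chromosome 19 (29545473 to 29545532 and 29545470 to 29545529, plus strand) and differ by T50C and A55G, counted from 1 at the 5′ end of probe A_55_P2187141. The last 30 bases they share carry both differences, in capitals:

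A_55_P2187141: tggaagcatttaagcaacacgtTaagtAcc
A_55_P2122075: tggaagcatttaagcaacacgtCaagtGcc

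Between 47.7% and 62.4% of gene spots carried the scanner's flag for a signal well above background, and none was saturated. Levels are log2 of the processed signal relative to the array's 75th percentile, so that 0 stands for that percentile, and they are compared between arrays for 1 probe at a time. IL-10- HDM array 3 stood apart: its mean correlation with the other 11 arrays was 0.775, against 0.867 to 0.901 for the others. All IL-10+ arrays and IL-10- control arrays 1 and 2 shared 1 slide and scan. IL-10- control array 3 and the IL-10- HDM arrays were on the second, so sort and slide cannot be told apart in HDM mice. Il10, the target of the sort, was 7.59 log2 units higher in IL-10+ than in IL-10- cells averaged over HDM and control mice (SE 0.84, limma adjusted p = 0.0080). With the slide as a fixed block 0 of all genes were called in the averaged comparison and 0 in HDM mice. The call of Il10, and of every other gene in those comparisons, was lost in that fit. Only the IL-10- control group spans both slides, so the block rests on its array 3 against its arrays 1 and 2. At least 11 of 12 listed B cell markers were well above background on every array.

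The first question was which checkpoint genes differ between B cells that secrete IL-10 and those that do not. Ctla4 rose in IL-10+ cells, at 62.8-fold, and was the 1 gene of the 10 that passed an adjusted p of 0.05 in the comparison averaged over HDM and control mice. It was well above background on only 3 of the 6 IL-10- arrays, so the size of that fold rests on dim spots. Over all 24958 tested genes 0.268% were called (61 higher and 6 lower, 0.244% and 0.024%). Tigit and Lag3 had log2 fold changes of 5.01 and 3.43 that did not pass. Pdcd1, too dim to be measured on the 6 IL-10- arrays, was at least 4.15-fold higher and did not pass either. The genes for the ligands PD-L1, PD-L2 and CD200 had smaller values of either sign. Of the 10 genes 7 had a positive fold change, against 52.7% of all genes, and the median of the 10 was 0.99, against 0.04 (the Pdcd1 lower bound in place of its fitted value leaves that median as it is). Without IL-10- HDM array 3, Pdcd1lg2 and Cd200 turned negative (-0.32 and -0.41) and Havcr2 turned positive (0.25). Pdcd1lg2, at 1.13 with all arrays, is among the middle values that set the median. At an unadjusted p under 0.05, 5 of the 10 were higher and 1 lower, against 5.59% and 3.57% of all genes. The 10 genes passed the filter on dim probes with all 12 probes. Pdcd1 did so through IL-10+ arrays only, so its direction was not free, and it is among the 7 positive and the 5 higher.

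**Figure D1:**
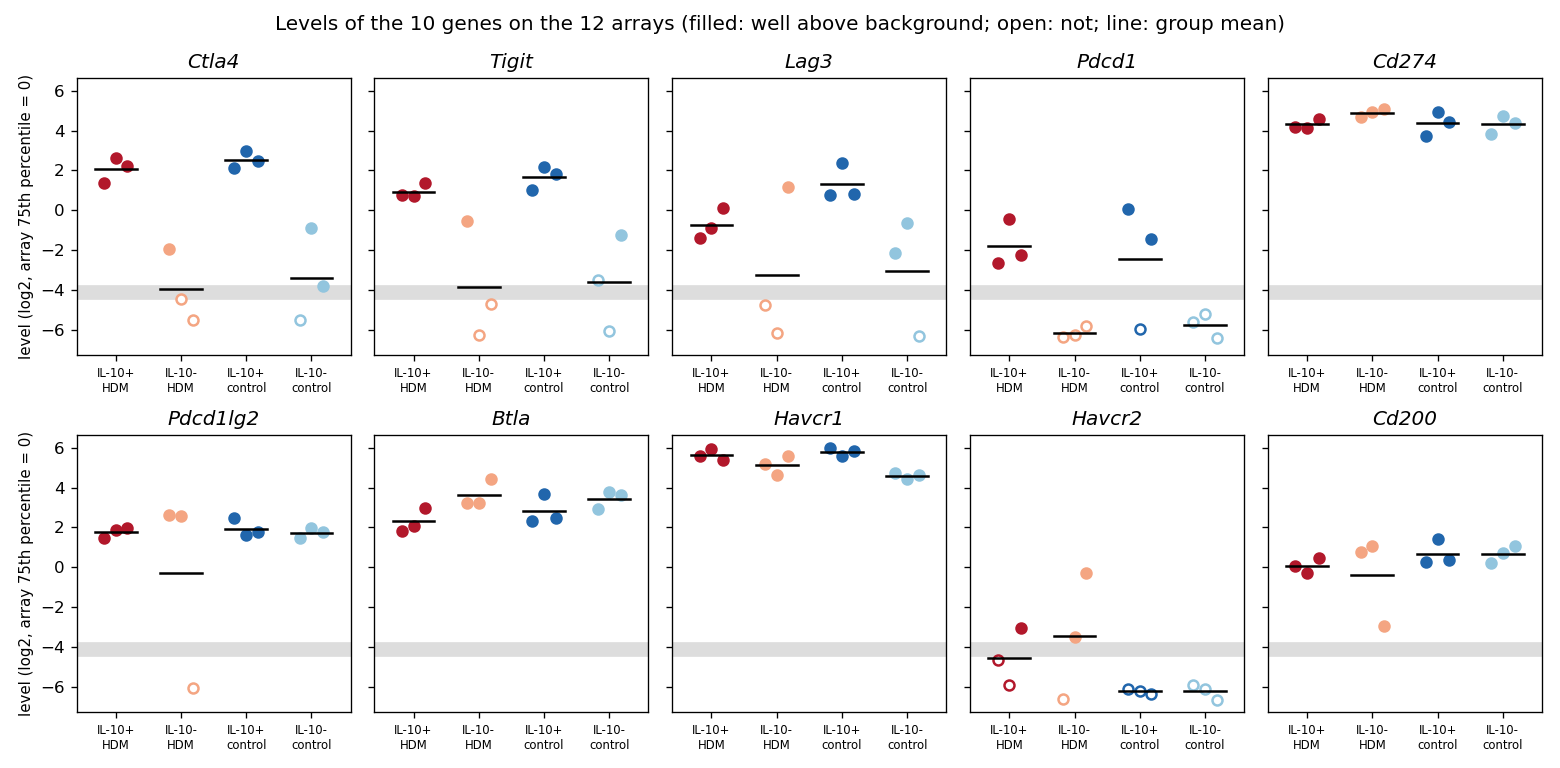
Level of each gene on each array (log2, array's 75th percentile = 0), with 1 point per array, a line at the group mean, and the range over arrays of the lowest signal well above background (-4.43 to -3.81) as a grey band. Open points were not well above background. Ctla4 and Tigit are filled on all 6 IL-10+ arrays and lie above every IL-10- array, while Cd274, Btla, Havcr1 and Cd200 are filled on all 12.

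Ctla4 encodes the receptor that takes CD80 and CD86 away from CD28. In HDM mice its level was 1.35, 2.63 and 2.24 on the IL-10+ arrays, against -1.94, -4.45 and -5.50 on the IL-10- arrays. In control mice it was 2.11, 2.99 and 2.46 on the IL-10+ arrays, against -5.51, -0.86 and -3.80 on the IL-10- arrays. The 2 sorted fractions did not overlap in either kind of mouse, a pattern that 1.23% of all genes shared in that direction. The signal was well above background on all 6 IL-10+ arrays and on 3 of the 6 IL-10- arrays, so the size of the fold rests on dim spots. The averaged log2 fold change was 5.97 (SE 0.81, limma adjusted p = 0.0168). It was 6.03 in HDM mice (SE 1.14, adjusted p = 0.0843) and 5.91 in control mice (SE 1.14, adjusted p = 0.253), neither past the threshold. With dim signals raised to each array's lowest well-measured signal it was 5.41 (adjusted p = 0.0065). The call was lost with the slide as a block (5.56, SE 1.47, adjusted p = 0.436), when IL-10+ HDM array 2 was left out (adjusted p = 0.0610) and when IL-10+ control array 3 was (adjusted p = 0.0586). It was also lost with the replicate number as a block (adjusted p = 0.0515) and with that block nested in HDM and control mice (adjusted p = 0.140). On the shared slide alone, the control mice gave 5.71 (SE 1.21, adjusted p = 0.311).

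Tigit encodes a receptor of the poliovirus receptor and nectins. Its level was 0.76, 0.70 and 1.35 on the IL-10+ arrays of HDM mice, against -0.51, -6.26 and -4.70 on the IL-10- arrays. The control mice gave 1.03, 2.16 and 1.83 on the IL-10+ arrays, against -3.51, -6.04 and -1.24 on the IL-10- arrays. The fractions again did not overlap in either kind of mouse, and the signal was well above background on 6 of 6 IL-10+ and 2 of 6 IL-10- arrays. The averaged log2 fold change was 5.01 (SE 1.01, adjusted p = 0.0945), which missed the threshold. It was 4.76 in HDM mice (SE 1.43) and 5.27 in control mice (SE 1.43). Leaving out each array in turn gave adjusted p-values of 0.0176 to 0.230. The lowest, at 5.84 (SE 0.77), came without IL-10- HDM array 1, the IL-10- HDM array where Tigit was brightest, and the other 11 fits made no call. Tigit also passed with dim signals raised to the floor (4.22, adjusted p = 0.0403) and after normexp background correction and quantile normalisation (2.72, adjusted p = 0.0083).

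Pdcd1 encodes PD-1. Its level was -2.63, -0.45 and -2.22 on the IL-10+ arrays of HDM mice, against -6.36, -6.24 and -5.80 on the IL-10- arrays. Control mice had 0.08, -5.93 and -1.42 on the IL-10+ arrays, against -5.58, -5.21 and -6.40 on the IL-10- arrays. It was well above background on 5 of 6 IL-10+ arrays and on 0 of 6 IL-10- arrays, so the fold has only a lower bound. Taken against the lowest well-measured signal of each array, Pdcd1 was at least 4.15-fold higher in IL-10+ cells averaged over HDM and control mice, at least 5.49-fold in HDM mice and at least 3.13-fold in control mice. The measured means were -2.10 on IL-10+ and -5.93 on IL-10- arrays, and the averaged comparison did not pass (adjusted p = 0.153). Leaving out each array in turn gave adjusted p-values of 0.0105 to 0.364. The lowest came without IL-10+ control array 2, the array that goes against the difference, and the other 11 fits made no call. Of 12 other settings, 1 called Pdcd1, with array weights (adjusted p = 0.0325).

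Lag3 encodes the MHC class II receptor LAG-3. Its level was -1.38, -0.91 and 0.13 on the IL-10+ arrays of HDM mice, against -4.74, -6.15 and 1.18 on the IL-10- arrays. In control mice it was 0.76, 2.37 and 0.82 on the IL-10+ arrays, against -2.17, -0.66 and -6.28 on the IL-10- arrays. The fractions stood apart in control mice, as 4.75% of all genes did in that direction, and overlapped in HDM mice through the 1 bright IL-10- array, number 3. The averaged log2 fold change was 3.43 (SE 1.30, adjusted p = 0.451). It was 4.54 without that array (adjusted p = 0.132) and 0.19 with the slide as a block (adjusted p = 0.993). The slide block rests on IL-10- control array 3, where Lag3 was dim (-6.28). Within the shared slide, the value in control mice was 2.73 (SE 0.74, adjusted p = 0.489).

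The PD-1 ligands showed no such split. Cd274 (PD-L1) was well above background on all 12 arrays. Its level was 4.18, 4.15 and 4.60 on the IL-10+ arrays of HDM mice, against 4.69, 4.92 and 5.08 on the IL-10- arrays, and 3.72, 4.94 and 4.41 on the IL-10+ arrays of control mice, against 3.84, 4.73 and 4.38 on the IL-10- arrays. The averaged difference was -0.27 (SE 0.27, 95% interval -0.88 to 0.33, adjusted p = 0.797), so a change of 1 log2 unit lay outside the interval. In HDM mice the IL-10+ arrays were all below the IL-10- arrays (-0.58, SE 0.38, adjusted p = 0.512), as for 11.2% of all genes.

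Pdcd1lg2 (PD-L2) had levels of 1.46, 1.87 and 1.97 on the IL-10+ arrays of HDM mice, against 2.64, 2.58 and -6.06 on the IL-10- arrays, by probe A_55_P2187141. Control mice gave 2.45, 1.61 and 1.75 on the IL-10+ arrays, against 1.47, 1.95 and 1.77 on the IL-10- arrays. One array decides its averaged value of 1.13 (SE 1.31, adjusted p = 0.821), which was -0.32 without IL-10- HDM array 3 (SE 0.24, adjusted p = 0.759). In HDM mice the value was 2.05 with that array and -0.84 without it (adjusted p = 0.628 and 0.482). The second probe gave the same picture, with a level of -5.78 on that array. The probes share most of their bases, so they are not independent readings.

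**Figure D2:**
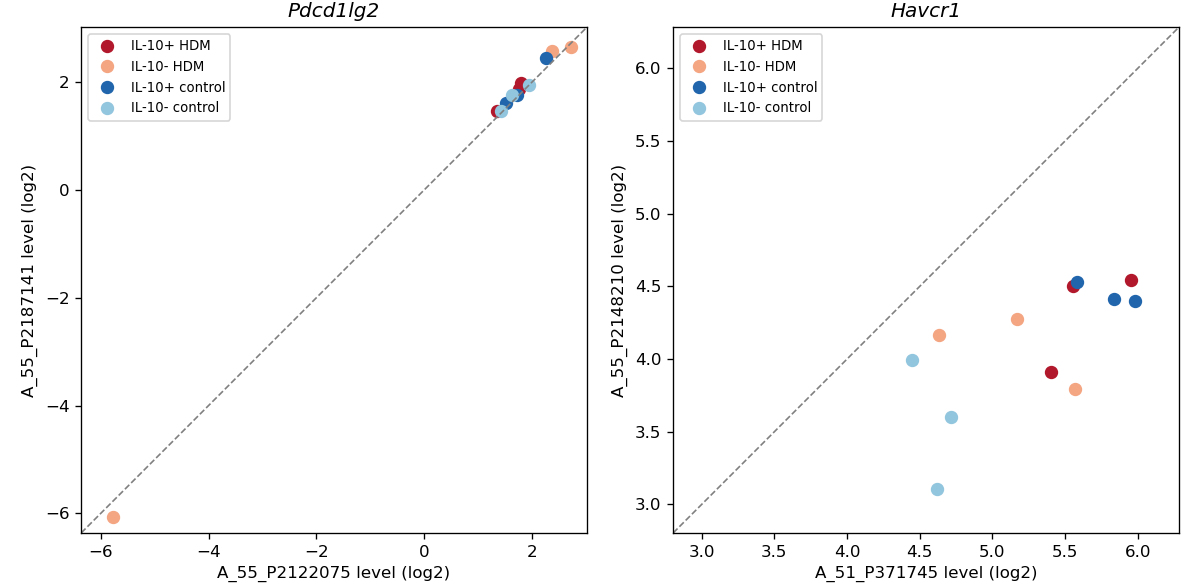
Levels (log2, array's 75th percentile = 0) by the 2 probes of Pdcd1lg2 (left) and of Havcr1 (right), with 1 point per array coloured by group and a dashed line of equality. The Pdcd1lg2 points lie along the line, with IL-10- HDM array 3 far below the rest, while Havcr1 is brighter by probe A_51_P371745 on all 12 arrays.

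Btla encodes an inhibitory receptor for the TNF receptor family member HVEM. Its level was 1.83, 2.09 and 2.97 on the IL-10+ arrays of HDM mice, against 3.22, 3.23 and 4.44 on the IL-10- arrays. The IL-10+ arrays of control mice had 2.31, 3.69 and 2.48, against 2.94, 3.77 and 3.62 on the IL-10- arrays. It was well above background on all 12 arrays, and its averaged value was -0.98 (SE 0.37, adjusted p = 0.451). The fractions did not overlap in HDM mice (-1.33, SE 0.52, adjusted p = 0.334) and overlapped in control mice (-0.62, SE 0.52, adjusted p = 1.00). In HDM mice 11.2% of all genes were likewise lower without overlap.

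Cd200, whose product binds the CD200 receptor of myeloid cells, had levels of 0.07, -0.30 and 0.44 on the IL-10+ arrays of HDM mice, against 0.76, 1.07 and -2.96 on the IL-10- arrays. In control mice it had 0.28, 1.40 and 0.36 on the IL-10+ arrays, against 0.21, 0.74 and 1.05 on the IL-10- arrays. The averaged value was 0.23 (SE 0.64, adjusted p = 0.932) with all arrays and -0.41 (SE 0.30, adjusted p = 0.751) without IL-10- HDM array 3.

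Havcr1 encodes TIM-1. By probe A_51_P371745 its level was 5.56, 5.96 and 5.40 on the IL-10+ arrays of HDM mice, against 5.17, 4.63 and 5.57 on the IL-10- arrays. In control mice it was 5.98, 5.59 and 5.84 on the IL-10+ arrays, against 4.72, 4.45 and 4.62 on the IL-10- arrays. The averaged log2 fold change was 0.86 (SE 0.23, adjusted p = 0.233). By probe A_55_P2148210 it was 0.56 (SE 0.25, adjusted p = 0.531 over all probes). In control mice the fractions did not overlap by either probe (as for 4.75% of all genes in that direction), with log2 fold changes of 1.21 and 0.88. In HDM mice they overlapped by both, with 0.51 and 0.24. The difference of the sort contrast between HDM and control mice was -0.69 (SE 0.46, adjusted p = 0.770), so a difference between the mice was not shown.

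Havcr2 encodes TIM-3, known from T cells and myeloid cells. It was well above background on 3 arrays, all of HDM mice: IL-10+ array 3 (-3.05) and IL-10- arrays 2 and 3 (-3.48 and -0.27). The other HDM values were -4.65 and -5.91 on IL-10+ arrays and -6.60 on an IL-10- array, and the 6 control arrays lay between -6.65 and -5.90. The averaged sort contrast was -0.55 (SE 0.91, adjusted p = 0.879), and leaving out IL-10- HDM array 3 gave 0.25.

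Within HDM mice or control mice taken singly, no checkpoint gene passed the adjusted threshold for the sort by limma. Across all genes 0.168% were called in HDM mice and 0.016% in control mice. The 42 genes behind the HDM share ranged from 5 to 214 when single arrays were left out. The lowest count came on leaving out IL-10+ HDM array 3, and the highest on leaving out IL-10- HDM array 1. At an unadjusted p under 0.05, 3 were higher and 1 lower in HDM mice and 5 were higher in control mice. Without overlap, 3 were higher and 2 lower in HDM mice, against 11.5% and 11.2% of all genes, and 4 were higher in control mice, against 4.75%. The unadjusted counts compare with 7.72% higher and 5.58% lower of all genes in HDM mice and 2.25% higher in control mice. Pdcd1 is among the 3 and the 5 higher, and among the 3 without overlap in HDM mice. It passed the filter on dim probes through IL-10+ arrays only, so its direction was not free and it is no support in these counts.

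The second question was whether HDM allergy moved these genes within each sorted fraction. None of the 10 was called by limma in either fraction, and at an unadjusted p under 0.05 there were 0 as well, where 2.28% of all genes stood for the IL-10+ fraction and 9.13% for the IL-10- fraction. Across all genes 0.00401% were called in IL-10+ cells and 0.0481% in IL-10- cells. Ctla4 averaged 2.07 ± 0.66 in IL-10+ HDM and 2.52 ± 0.44 in IL-10+ control cells (SD, n = 3 each), a difference of -0.45 with a limma 95% interval of -2.99 to 2.10. The interval is wide enough to hold changes of several fold in either direction. Cd274 was bounded more closely, at -0.04 (-0.90 to 0.81) in IL-10+ cells and at 0.58 (-0.28 to 1.43) in the IL-10- fraction. Havcr1 was similarly bounded, at -0.16 (-0.89 to 0.56) in IL-10+ cells and at 0.53 (-0.20 to 1.25) in the IL-10- fraction. In the IL-10- fraction all HDM arrays but only control array 3 were on the second slide. HDM and slide are thus largely mixed there, which these intervals do not take in. Over other settings the value in that fraction ran from 0.19 to 1.22 for Cd274 and from 0.15 to 1.17 for Havcr1.

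Lag3 was the 1 checkpoint gene lower on every HDM array in IL-10+ cells, at -1.38, -0.91 and 0.13 in HDM mice, against 0.76, 2.37 and 0.82 in control mice. These 6 arrays share a slide. The log2 fold change was -2.04 (SE 1.83, adjusted p = 1.00), and 3.75% of all genes were likewise lower without overlap. Havcr2 was higher on every HDM array of IL-10+ cells, where 1 of 3 HDM arrays and 0 of 3 control arrays were well above background (5.86% of all genes were higher without overlap). Havcr2 passed the filter on dim probes through HDM arrays only. Its direction against control mice was therefore not free, and it is no support here. In IL-10- cells its HDM against control value was 2.76 (SE 1.29, adjusted p = 0.554), and leaving out IL-10- HDM array 3 gave 1.17. In that fraction Havcr2 was well above background on 2 of 3 HDM and 0 of 3 control arrays. The value is thus fitted against control arrays too dim to be measured.

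The sort contrast itself did not differ between HDM and control mice for any checkpoint gene by limma's interaction term, with 0 at an unadjusted p under 0.05 (6.46% of all genes were, and 0.012% were called). For Ctla4 the difference was 0.12 (95% interval -3.48 to 3.72) and for Tigit -0.51 (-5.01 to 3.98). Intervals of this width do not show that the contrasts were alike.

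**Figure D3:**
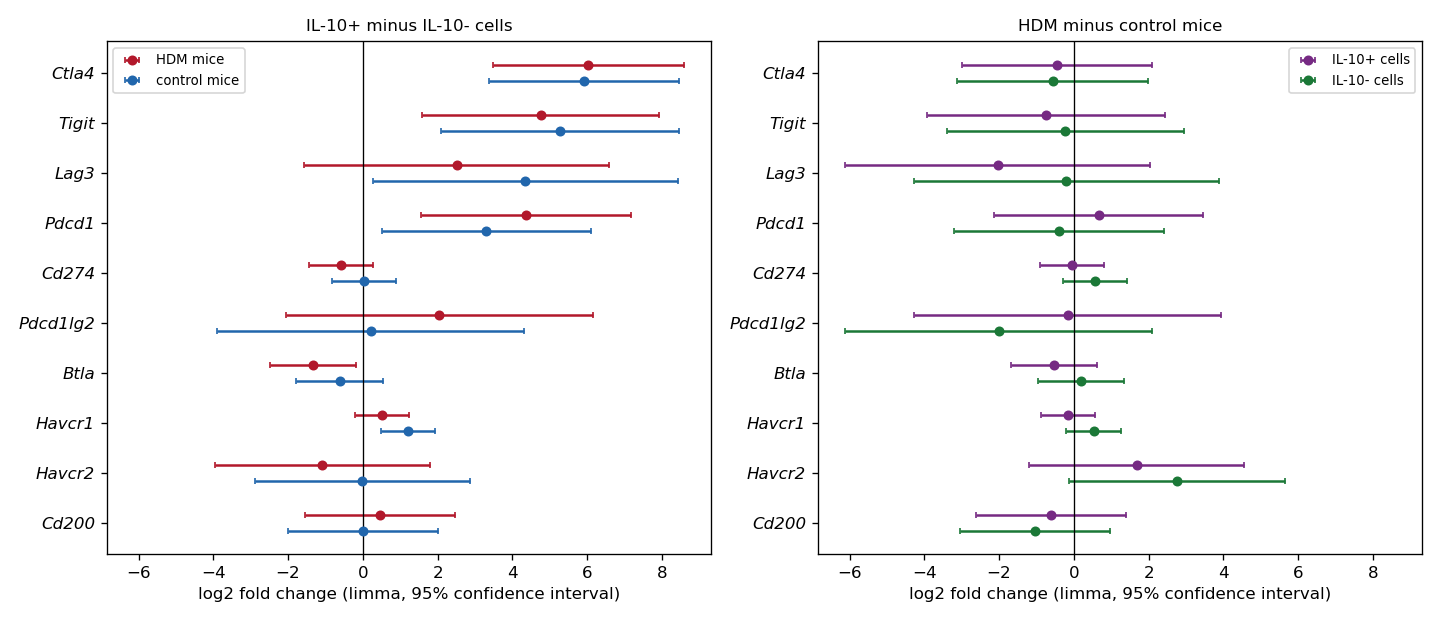
Log2 fold changes from limma with 95% confidence intervals, for IL-10+ minus IL-10- cells in HDM and control mice (left) and for HDM minus control mice in each fraction (right). The Ctla4, Tigit and Pdcd1 intervals lie above 0 on the left in both kinds of mice, before adjustment for the genes tested, and all intervals on the right cross 0. The Pdcd1 values on the left are fitted against arrays on which it was not well above background. The Havcr2 values on the right are likewise fitted against control arrays on which it was not well above background.

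Processing moved the size of the large fold changes more than their sign. The averaged Ctla4 value ran from 3.71 to 5.97 over 12 other settings and from 5.44 to 6.60 when each array was left out in turn. It kept its call in 9 of the 12 other settings and in 10 of the 12 fits without an array. Tigit ran from 2.72 to 7.37 and Lag3 from 0.19 to 4.36 over the same settings. The lowest values of Ctla4 and Tigit came from normexp, which keeps an offset under dim spots.

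**Figure D4:**
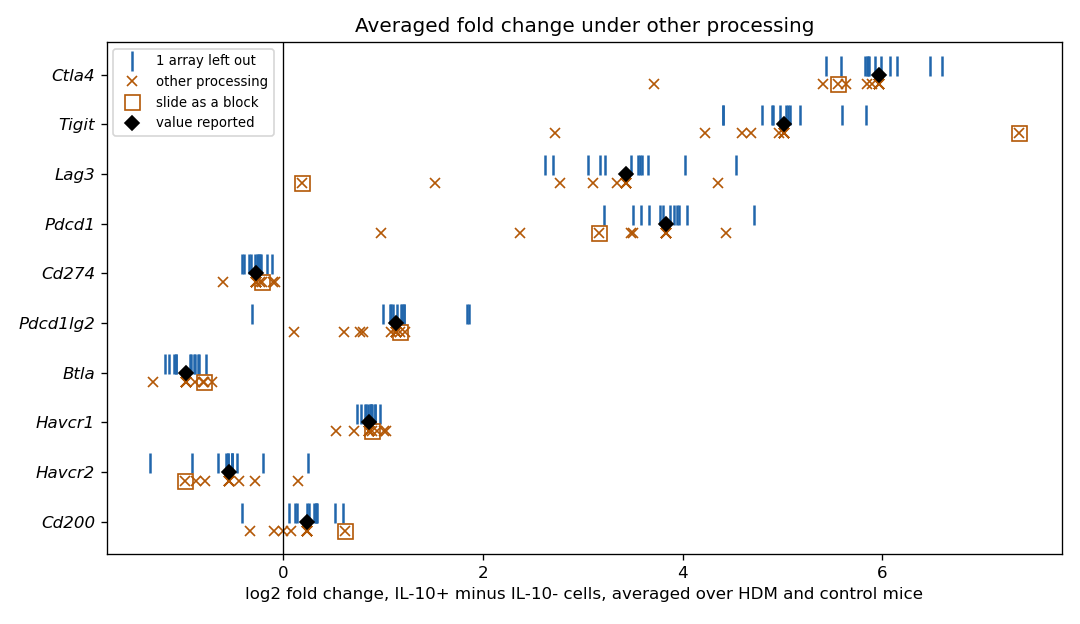
Averaged log2 fold change of IL-10+ minus IL-10- cells for each gene as reported (black), with 1 array left out (blue bars), under other processing (brown crosses) and with the slide as a block (brown squares). Ctla4, Tigit, Lag3, Pdcd1 and Havcr1 stay above 0 in every fit shown, Lag3 at 0.19 with the slide, and Pdcd1lg2, Havcr2 and Cd200 fall on both sides.

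The genes whose levels most resembled each checkpoint gene were taken by Pearson correlation across the 12 arrays among 13715 named genes. The arrays share sort, slide and quality, so these values describe likeness only. Ctla4 was most like Cd9 (0.968), the tetraspanin in the study's title, Plbd1 (0.956) and Tnfsf9 (0.945), which encodes the ligand of 4-1BB. Tigit was most like Irx2 (0.951), Itgal (0.902), the integrin chain of LFA-1, and Psmb10 (0.901), an immunoproteasome subunit. Lag3 was most like Mmp10 (0.936), Sned1 (0.936) and Usp47 (0.911).

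Cd274 was most like Dusp14 (0.975), Tlr7 (0.953), the endosomal receptor of single-stranded RNA, and Brpf1 (0.950). Btla was most like Dph5 (0.948), Topbp1 (0.948) and Fosb (0.926). Havcr1 was most like Atxn1 (0.932), Plekhg3 (0.915) and Ifitm7 (0.907). For Pdcd1lg2 and Cd200 the likeness rested on IL-10- HDM array 3: Mgat2 had 0.993 with Pdcd1lg2 and 0.713 without that array, and Exosc7 had 0.976 with Cd200 and 0.869 without it. Ermp1 and Zdhhc9 came next for Pdcd1lg2 (0.992 and 0.989), and Xlr3b and Rab9 for Cd200 (0.969 and 0.963). Pdcd1 and Havcr2 were well above background on too few arrays for such a list.

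Of the CD28 and B7 genes outside the 10, 8 of 12 listed were tested and 0 were called in the averaged sort comparison, with 7 of the 8 positive (52.7% of all genes were) and a median of 0.63. Cd80, a ligand of CTLA-4 and CD28, had a level of 3.03 on IL-10+ arrays and 2.18 on IL-10- arrays (0.85, SE 0.23, adjusted p = 0.226). Its fractions did not overlap in either kind of mouse, as for 1.23% of all genes in that direction. Cd86, the other ligand, had 2.18 (SE 0.99, adjusted p = 0.550). It was bright enough to be measured on 5 of 6 IL-10+ and 3 of 6 IL-10- arrays. Of 21 ligands and partner receptors of the 10 genes, 10 were tested and 0 were called, with a median of 0.07. Timd2, a TIM family gene of the mouse, had 0.83 (SE 0.24, adjusted p = 0.269). Tnfsf14, which encodes the HVEM ligand LIGHT, had 2.70 (SE 1.33, adjusted p = 0.583).

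Of 12 enzymes and adaptors of inhibitory signalling, 9 were tested and 1 was called, where 0.268% of all genes were. This was Ptpn22, a phosphatase that dampens antigen receptor signalling. It was well above background on 6 of 6 IL-10+ and 0 of 6 IL-10- arrays, so it passed the filter on dim probes through IL-10+ arrays only and its fold has only a lower bound. The averaged comparison put Ptpn22 at least 4.21-fold higher in IL-10+ cells (adjusted p = 0.0129), with measured means of -2.08 and -5.99 on IL-10+ and IL-10- arrays. It was also called in HDM mice (adjusted p = 0.0432), where 0.168% of all genes were. Both calls were lost with the slide as a block and with the nested replicate block, where 0 genes were called. Ptpn6, Ptpn11 and the other tested enzymes were not called. Of 17 other inhibitory receptors of B cells, 15 were tested and 0 were called, with a median of 0.08. Siglecg had 2.15 (SE 0.94, adjusted p = 0.535) and did not pass. Klrg1 was well above background on 3 of 6 IL-10+ and 0 of 6 IL-10- arrays, so it too passed the filter through IL-10+ arrays only. It was at least 1.27-fold higher and did not pass (adjusted p = 0.519). Of 19 transcription factors tied to inhibitory receptors in T cells, 14 were tested and 0 were called. Nr4a1, an early antigen receptor response gene, was lower in IL-10+ arrays but did not pass (-1.61, SE 0.32, adjusted p = 0.0924).

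Since Ctla4, Tigit, Lag3 and Pdcd1 are known chiefly from T cells, markers of T cells are given beside them. In bulk samples, fewer cells of a type and less RNA per cell cannot be told apart. Of 20 T cell markers 15 were tested, 0 were called in the averaged sort comparison and 10 of the 15 were positive (52.7% of all genes were), with a median of 0.09. Their summed level, in multiples of the array's 75th percentile, was 9.91 to 11.0 in IL-10+ HDM, 7.12 to 9.87 in IL-10- HDM, 8.60 to 10.9 in IL-10+ control and 10.6 to 11.7 in IL-10- control arrays. In HDM mice the sum was higher on every IL-10+ array than on any IL-10- array, but barely (9.91 against 9.87 at the nearest). The 2 fractions of HDM mice were also on different slides. In control mice the fractions overlapped with the IL-10- arrays at the upper end. Cd3e, of the T cell receptor complex, was well above background on all 12 arrays, at -2.93 to -1.78 on IL-10+ arrays and -3.08 to -1.36 on IL-10- arrays. Cd3d and Trat1 were well above background on 2 arrays each, all IL-10+. Cd2, an adhesion receptor, had 3.52 (SE 0.79, adjusted p = 0.136). It stood well above background on 6 of 6 IL-10+ and 2 of 6 IL-10- arrays, as Tigit did. Il7r had -2.59 (SE 0.62, adjusted p = 0.168). The part of T cells in the checkpoint values was not tested.

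The other marker lists gave 2 called genes in the averaged comparison, both among the 9 tested plasmablast markers, where 0.268% of all genes were called. Jchain, the joining chain of secreted IgM and IgA, rose by 6.84 (SE 0.62, adjusted p = 0.0045) and by 7.23 in HDM mice (adjusted p = 0.0145), and Ly6c1 rose by 4.67 (SE 0.76, adjusted p = 0.0415). Each was well above background on 6 of 6 IL-10+ and 2 of 6 IL-10- arrays, so the size of both folds rests on dim spots. These 3 calls were lost with the slide as a block and with the nested replicate block. The 9 markers had a median of 0.29. Among 8 tested markers of NK and innate lymphoid cells, 0 were called, with Il2rb at 2.62 (SE 0.46, adjusted p = 0.0563) and Rora at -1.60 (SE 0.51, adjusted p = 0.348). Among 9 of monocytes and macrophages, 0 were called, with Adgre1 at 2.44 (SE 0.48, adjusted p = 0.0891) and Cd68 at -0.40. Among 7 of dendritic cells, 0 were called, with Cd209a at 0.49 and Siglech at -0.15. Among 12 of B cells, 0 were called, with Blk at 1.14 (SE 0.32, adjusted p = 0.252) and Bank1 at 0.51. Their part in the checkpoint values was not tested.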

How the data were processed

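Per the labels' protocols, mRNA was captured on beads, its cDNA amplified by global PCR (SuperAmp) and the product Cy3-labelled. Arrays of Agilent design 028005 (mm9) were read with Feature Extraction 10.7.3.1, per the file headers. In the deposited scanner files each spot has an intensity as scanned (mean and local background) and a background-subtracted processed signal, besides flags (other values, per the file headers). The authors' deposited value table is a ratio, the processed signal over the array's median, found by recomputation (largest deviation 0.00077%).

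Levels are log2 of the processed signal over its 75th percentile on that array. Probes well above background on at least 3 of 12 arrays were kept (37722, less 79 with only outlier spots on some array), and 1 probe per gene was used, the one with the highest mean, leaving 24958 genes. limma 3.58.1 in R 4.3.3 (lmFit, eBayes) fitted 4 group means. Adjusted p-values are Benjamini-Hochberg over all tested genes, with a threshold of 0.05, in 6 comparisons. The number of arrays limits the precision. "No overlap" in the averaged comparison means none within HDM mice and none within control mice, in the same direction. The scripts were tested on simulated data.

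The checkpoint genes and gene lists were chosen with earlier results of these data known. Named genes followed a rule: all 10 checkpoint genes, Il10, the called genes of each list or otherwise the 2 with the smallest p in the averaged comparison, and the 3 named genes most like each checkpoint gene measured on at least 6 arrays. Genes named outside it were chosen after their values were seen. One transcription factor that the rule takes is not reported here. Of the 12 probes' accessions, 10 matched a RefSeq symbol.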

Additional observations from a re-analysis of the deposited data

How the results depend on the processing

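No result changed sign while past the threshold. In the averaged sort comparison, 1 checkpoint gene was called; the count was 2 after normexp and quantile normalisation, 2 with dim signals raised to the floor, 2 with array weights, 0 with the slide as a block, 0 with the replicate number as a block, and 0 to 2 when single arrays were left out. Ctla4 had an adjusted p of 0.0515 with the replicate block and 0.140 with the replicate block nested in HDM and control mice (0 called), an alternative chosen after seeing the data. Deviations of same-numbered arrays correlated at -0.142 to 0.149, with 2 of 18 above 0.1. Only IL-10+ and IL-10- arrays of the same kind of mouse could share a mouse or culture. These pairs had 0.114, 0.149 and 0.033 in control mice and 0.019, 0.033 and 0.067 in HDM mice, all positive. Whether the numbers pair samples is therefore not settled, and the main fit does not pair them. Within HDM mice, 0 checkpoint genes were called, against 1 after normexp, 1 with the floor and 0 to 2 when single arrays were left out. Within control mice, 0 were called, against 1 after normexp. Of 1474 refits of single checkpoint genes, 12 gained a call. Only Ctla4 in the averaged comparison had a call to lose, and 5 of its 24 refits lost it. The cause was not tested.

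Over all genes, the averaged comparison called 67, and 26 with median scaling (which put the median of all genes at -0.29), 128 with array weights, 0 with the slide as a block (1759 at an unadjusted p under 0.05), 36 and 0 with the 2 replicate blocks, 130 of 37643 probes fitted singly, and 31 to 139 when single arrays were left out. In HDM mice 42 genes were called, with 0 for the slide block, 17 and 0 for the replicate blocks, 7 with median scaling and 5 to 214 when single arrays were left out. With the slide as a block, the Lag3 value in HDM mice was -2.35 (adjusted p = 0.820), against 2.51. That block rests on IL-10- control array 3 against arrays 1 and 2, with Lag3 at -6.28 against -2.17 and -0.66. The Lag3 value with the block thus depends on 1 dim spot. Signals near background limit the values of Ctla4, Tigit, Lag3, Pdcd1 and Havcr2 in IL-10- cells.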
